A study of Mus musculus with 15 samples.

Results

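The comparison followed miRNAs in mouse epiblast stem cells (EpiSC, cells of the post-implantation epiblast) that differentiated without added morphogens between day 5 and day 9. It rested on 6 of the 15 arrays of the study, chosen by their titles: 3 of control cells at day 9 and 3 of cells at day 5. All cells came from EpiSC of Pitx3-GFP mice, which carry a fluorescent reporter of Pitx3, a transcription factor gene of midbrain dopaminergic neurons. Control cells at day 9 had received no morphogen, and day 5 cells were harvested before any morphogen was given. The other 9 arrays, 3 each, were of cells that received SHH and FGF8, patterning factors of the ventral midbrain, from day 5 and were harvested at day 9 or day 14, and of control cells at day 14. The labels call day 5 and control day 9 cells alike EpiSC, and they name neither the number of lines or clones nor whether replicates came from separate cultures, so the p-values measure the spread between these arrays, which may be technical.

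A miRNA is a short RNA that guides the silencing of messenger RNAs, and it finds them mainly through its seed, bases 2 to 8 from its 5′ end. miRNAs with the same seed form a family that can act on the same targets. As background, the miR-302 and miR-290 clusters are known from pluripotent cells, the miR-17-92 cluster and its paralogs from proliferating cells, and the let-7 family from cells that have left the pluripotent state. miR-9, miR-124 and miR-125b are known from neural progenitors and neurons.

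A miRNA was tested if some group had it above background on each of its 3 arrays, which 306 met, and 227 of them matched a mature sequence of RefSeq (build GRCm38.p6) by name. The sequences of the families with the largest changes are given here with the seed in capitals. The first set is the let-7 family, which holds the 3 largest fitted increases; its members share one seed and differ from each other at 1 to 6 of 22 bases, and whether the probes tell them apart was not tested.
let-7a-5p: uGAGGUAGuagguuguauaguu
let-7c-5p: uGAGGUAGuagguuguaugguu
let-7f-5p: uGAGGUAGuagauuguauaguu
let-7g-5p: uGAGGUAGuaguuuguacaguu
let-7e-5p: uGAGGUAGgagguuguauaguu
let-7i-5p: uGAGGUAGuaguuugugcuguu
let-7b-5p: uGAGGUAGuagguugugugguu
let-7d-5p: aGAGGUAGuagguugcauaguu
miR-98-5p: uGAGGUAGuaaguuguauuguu

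The second set holds the other families that increased together and both arms of miR-9. The 2 miR-125 members share CCCUGAG, miR-99 and miR-100 share ACCCGUA, and the 4 miR-181 members share ACAUUCA.
miR-125b-5p: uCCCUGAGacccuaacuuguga
miR-125a-5p: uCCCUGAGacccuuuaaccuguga
miR-99a-5p: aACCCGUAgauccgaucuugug
miR-99b-5p: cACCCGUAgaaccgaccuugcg
miR-100-5p: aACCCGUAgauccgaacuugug
miR-181a-5p: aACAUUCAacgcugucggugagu
miR-181b-5p: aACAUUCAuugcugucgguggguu
miR-181c-5p: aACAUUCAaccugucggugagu
miR-181d-5p: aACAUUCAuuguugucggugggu
miR-9-5p: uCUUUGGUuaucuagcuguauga
miR-9-3p: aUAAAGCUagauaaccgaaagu

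The third set holds RNAs that decreased. The letters AAGUGC recur near the 5′ end of the miR-302 and miR-17 members and of miR-294-3p, and miR-363, miR-367 and miR-92a share the seed AUUGCAC. In RefSeq the seed of miR-302c-3p is AGUGCUU, whereas miR-302b-3p, miR-302d-3p and miR-294-3p share AAGUGCU.
miR-302b-3p: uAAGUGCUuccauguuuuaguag
miR-302c-3p: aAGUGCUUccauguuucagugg
miR-302d-3p: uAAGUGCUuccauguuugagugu
miR-294-3p: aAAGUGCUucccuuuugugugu
miR-17-5p: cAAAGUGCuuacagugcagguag
miR-20b-5p: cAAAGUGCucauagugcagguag
miR-18a-5p: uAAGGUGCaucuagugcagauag
miR-18b-5p: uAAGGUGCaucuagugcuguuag
miR-363-3p: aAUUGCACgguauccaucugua
miR-367-3p: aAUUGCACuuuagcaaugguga
miR-92a-3p: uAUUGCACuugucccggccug

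Signals are given as scaled log2 signals: the background-subtracted intensity over the array's 75th percentile, so that a value of 0 equals that percentile and amounts per cell were not measured. Values were raised to a floor of -4.27. The scaling percentile was 220 to 268 intensity units on control day 9 arrays and 149 to 337 on day 5 arrays, and 244 to 257 mouse miRNAs, of 1122 on the array, were above background in control day 9 cells and 238 to 293 at day 5. Replicates correlated at 0.994 to 0.998 in control day 9 and at 0.980 to 0.987 in day 5 (Pearson, across miRNAs, which are not independent replicates).

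The control day 9 arrays lay on slide 2 and the day 5 arrays on slide 1, so slide and day cannot be told apart within these 6 arrays. The labelling spike-in was at 2.71 to 2.84 on control day 9 arrays and 2.97 to 3.11 on day 5 arrays (log10), and the hybridisation spike-in at 4.02 to 4.14 against 4.42 to 4.43. Slide could be fitted as a block only through the treated day 14 group, which had replicates 1 and 2 on slide 1 and replicate 3 on slide 2, so that every value with the slide block rests on that 1 array (on slide 2 minus slide 1, the miRNAs of this group differed by a median of -0.08 and, from the 5th to the 95th percentile, by -0.46 to 0.16). For the 17 tested miRNAs at the floor on all treated day 14 arrays, 13 of which were called, that block estimates no slide difference. The 8 probes of 4 viral miRNAs above background on all 15 arrays changed by a median of -0.53 (-0.85 to 0.04), control day 9 minus day 5. The slide's part in the results below was not tested otherwise.

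Of the 306 miRNAs, 180 (58.8%) differed between control day 9 and day 5 cells (limma, adjusted p below 0.05), 73 (23.9%) of them higher at day 9 and 107 (35.0%) lower. An unadjusted p below 0.05 was reached by 185, and 178 (58.2%) had day 9 and day 5 arrays that did not overlap. The split depended on the scaling: 107 were higher and 49 lower with the 75th percentile over all probes, 97 and 82 with quantile normalization, 91 and 92 with median scaling, and 53 and 33 without scaling. The median change of all 306 was -0.09, and 0.18 with the percentile over all probes, so small changes have no settled direction. A fixed slide block left 98 calls (32.0%), of which 51 (16.7%) were higher and 47 (15.4%) lower; 94 of them were also called without the block, all in the same direction. Changes past 2-fold were found for 58 called miRNAs, 22 higher and 36 lower, and 57 of these were called with the slide block too. The 57 include miRNAs, such as miR-302b-3p and miR-335-3p, for which the block estimates no slide difference.

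**Figure D1:**
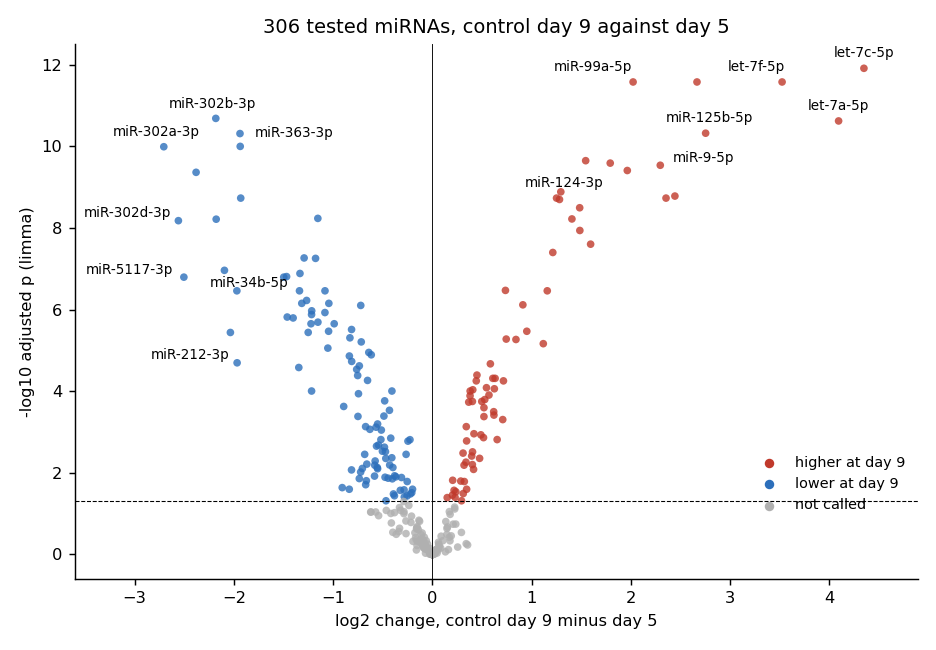
Log2 change of each of the 306 tested miRNAs (x axis, control day 9 minus day 5) against -log10 of limma's adjusted p (y axis; the dashed line is 0.05), red for higher and blue for lower at day 9. let-7c-5p, let-7a-5p and let-7f-5p lie farthest right, with let-7c-5p at 4.35, and miR-302a-3p lies farthest left at -2.71.

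**Figure D2:**
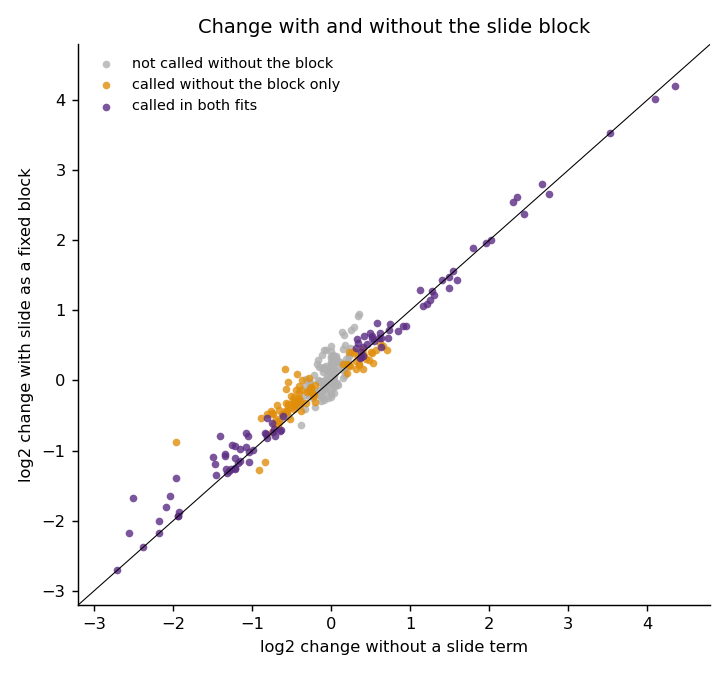
Log2 change without a slide term (x axis) against the change with slide as a fixed block (y axis) for the 306 miRNAs, with the line of equality. The 94 miRNAs called in both fits (purple) hold all but 1 of the 58 called changes past 2-fold, and the exception is miR-212-3p. The 94 include miRNAs, such as miR-302b-3p, for which the block estimates no slide difference.

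The 3 largest fitted increases were of let-7 members. let-7 RNAs are known to repress growth and early-development genes such as Lin28, whose protein in turn blocks let-7 maturation. let-7c-5p was at 0.47, 0.18 and 0.24 on the control day 9 arrays, against -3.88, -4.07 and -4.21 on the day 5 arrays (scaled log2 signals), a change of 4.35 (SE 0.11, limma adjusted p = 1.22e-12). The day 9 arrays lay far above all day 5 arrays, and only 1 of the 3 day 5 arrays was above background. let-7a-5p was at 0.73, 0.46 and 0.35 against -3.44, -3.36 and -3.94, a change of 4.10 (SE 0.15, adjusted p = 2.38e-11). let-7f-5p was at -0.12, -0.15 and -0.30 against -3.66, -3.55 and -3.94, a change of 3.53 (SE 0.10, adjusted p = 2.64e-12). Both were above background on 2 of 3 day 5 arrays, and neither had overlapping groups.

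A further 5 let-7 members were above background on all control day 9 arrays and on none at day 5, so only a lower limit of their change is known. That limit compares the day 9 mean with the dimmest signal that counted as above background at day 5. let-7g-5p, at -1.49, -1.61 and -1.71 on the day 9 arrays, was at least 4.95-fold higher in control day 9 cells. let-7e-5p, at -1.56, -1.94 and -1.97, was at least 4.25-fold higher. The limits were 3.04-fold for let-7i-5p, 2.36-fold for let-7b-5p and 2.07-fold for let-7d-5p (limma adjusted p from 2.64e-12 to 2.49e-08 over these 5). miR-98-5p, which carries the same seed, was below background in both groups. The family had 15 members on the array; 8 of the 9 tested were higher at day 9, also with the slide block and with each other scaling. With normexp background correction let-7b-5p and let-7d-5p were no longer called, and with a floor 4 times higher let-7b-5p, let-7d-5p and let-7i-5p were not. No let-7 member was above background on all 6 arrays, and a member that is dim at day 5 could enter the test only through groups where it was bright, so the count of 8 of 9 is not read against the 23.9% of all miRNAs. The family's summed signal, counting only signals above background, was 4.28 to 5.24 times the scaling percentile on day 9 arrays and 0 to 0.24 times on day 5 arrays.

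The let-7 genes lie in several clusters (RefSeq, GRCm38.p6), and one mature RNA can come from more than one of them. The hairpins of let-7a, let-7f and let-7d lie at chr13:48536012-48538272 on the minus strand. Hairpins of let-7c and let-7b lie at chr15:85706603-85707403 (plus strand) within the non-coding gene Lncppara. let-7c also lies beside miR-99a at chr16:77598936-77599750 (plus strand), and let-7e lies between miR-99b and miR-125a at chr17:17830194-17830879 (plus strand), within the span of the protein-coding gene Spaca6. In the chromosome 17 cluster miR-99b-5p, let-7e-5p and miR-125a-5p were higher at day 9, whereas miR-125a-3p, from the opposite arm of the same hairpin, changed by -0.11 and was not called.

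miRNAs with the seeds of miR-125 and miR-99, some of them neighbours of let-7 genes, were measured on all 6 arrays. miR-125b-5p, which is known from neural progenitors and shares its seed with the worm miRNA lin-4, was at 3.61, 3.48 and 3.36 in control day 9 cells, against 0.61, 0.60 and 0.97 at day 5, a change of 2.76 (SE 0.10, limma adjusted p = 4.75e-11). It was the largest increase among miRNAs above background on all 6 arrays. miR-99a-5p was at 0.67, 0.64 and 0.68 against -1.42, -1.31 and -1.36, a change of 2.02 (SE 0.06, adjusted p = 2.64e-12). The spread within each group (SD 0.02 at day 9 and 0.05 at day 5) was far less than the gap between the groups. miR-100-5p changed by 1.55 (SE 0.07), miR-125a-5p by 1.49 (SE 0.10) and miR-99b-5p by 1.16 (SE 0.10), each with adjusted p of 3.46e-07 or less and no overlap between the groups. All of the 5 tested miRNAs with the miR-125 or the miR-99 seed increased, where 25.9% of all miRNAs above background on all 6 arrays were called higher. Groups did not overlap for 58.2% of all 306 miRNAs.

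The 4 miR-181 members, known from neural tissue and from lymphocytes, also increased. miR-181a-5p was at -0.42, -0.32 and -0.40 in control day 9 cells and at -2.21, -2.29 and -2.02 at day 5, a change of 1.79 (SE 0.08, limma adjusted p = 2.57e-10). miR-181b-5p changed by 1.30, miR-181c-5p by 1.28 and miR-181d-5p by 1.21 (SE 0.07 to 0.09, adjusted p of 3.98e-08 or less). The hairpins of miR-181a and miR-181b lie together at chr1:137966455-137966718 and at chr2:38852735-38853918 (plus strand), and those of miR-181c and miR-181d at chr8:84178716-84178945 (minus strand). miR-181a and miR-181b each come from both of their loci, so the change of a single locus was not measured. Counted over the whole list of neural progenitor miRNAs, 15 of 30 were tested, 10 were higher and 2 lower, with a median change of 1.21 against -0.09 for all 306. Of the 14 above background on all 6 arrays 10 were higher, 71.4% in a setting where 25.9% of all such miRNAs were. The list's summed signal was 17.4 to 19.4 times the scaling percentile in control day 9 cells and 5.25 to 5.84 times at day 5. The lower members were miR-135a-1-3p, with a change of -1.22, and miR-92b-3p, with -0.58 (with the slide block -0.44, not called).

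Among neuronal miRNAs both arms of miR-9 increased most. miR-9 is known to act on progenitor genes in the developing brain. miR-9-5p was at 2.79, 2.93 and 2.73 in control day 9 cells, against 0.67, 0.53 and 0.36 at day 5, a change of 2.30 (SE 0.11, limma adjusted p = 2.9e-10). miR-9-3p was at 0.82, 1.16 and 0.94 against -1.39, -1.28 and -1.48, a change of 2.36 (SE 0.13, adjusted p = 1.85e-09). The changes of the 2 arms lay within 1 SE of each other. miR-124-3p, the most characteristic miRNA of neurons, was at 2.30, 2.35 and 2.27 against 1.07, 0.97 and 1.11, a change of 1.25 (SE 0.07, adjusted p = 1.85e-09). It was thus well above background at day 5 already.

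miR-137-3p, known from neural stem cells and neurons, was at -3.12, -2.71 and -2.98 in control day 9 cells and at -4.03, -3.87 and -4.27 at day 5, where 1 of 3 arrays was above background (change 1.12, SE 0.13, limma adjusted p = 6.83e-06). miR-129-1-3p was above background only at day 9 and was at least 1.31-fold higher. With normexp the change of miR-129-1-3p was -0.0251, and neither it nor miR-137-3p was called with normexp or with a floor 4 times higher. miR-128-3p changed by 0.55 and miR-153-3p by 0.32, and both were called with the slide block as well. miR-129-2-3p, above background on all 6 arrays, changed by -0.09, miR-218-5p, known from motor neurons, by 0.03 and miR-7a-5p by -0.22, none called. In all 19 of the 35 listed neuronal miRNAs were tested. Of these 9 were higher (47.4%) and 1 lower (5.3%), 8 and 0 with the slide block. Some, such as miR-129-1-3p and miR-132-3p, were below background at day 5 and could enter the test only through groups where they were brighter. The counts are therefore not read against the 23.9% of all miRNAs that were higher and the 35.0% that were lower. The median was 0.15, which includes members such as miR-129-5p and miR-138-5p that were below background on all 6 arrays. Of the 9 above background on all 6 arrays 5 were higher, against 25.9% of all such miRNAs, and their median was 0.32. The summed neuronal signal was 16.2 to 17.9 times the scaling percentile in control day 9 cells and 6.0 to 6.8 times at day 5.

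The lower neuronal member was miR-212-3p, which neuronal activity is known to induce together with its neighbour miR-132. miR-212-3p was at -3.54, -3.33 and -3.22 in control day 9 cells and at -1.08, -1.23 and -1.87 at day 5, and fell by 1.97 (SE 0.26, limma adjusted p = 2.01e-05). The slide block reduced the change to -0.88, which was no longer called (adjusted p = 0.0561). miR-132-3p, which has the same seed AACAGUC and lies in the same cluster at chr11:75173388-75173747 (plus strand), was near the detection limit: it was at -3.59, -4.04 and -4.13 at day 9, and below background on all day 5 arrays. Its change was called (adjusted p = 0.0252; 0.464 with the slide block), but its day 9 signal did not exceed the day 5 detection limit, so no fold is given.

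**Figure D3:**
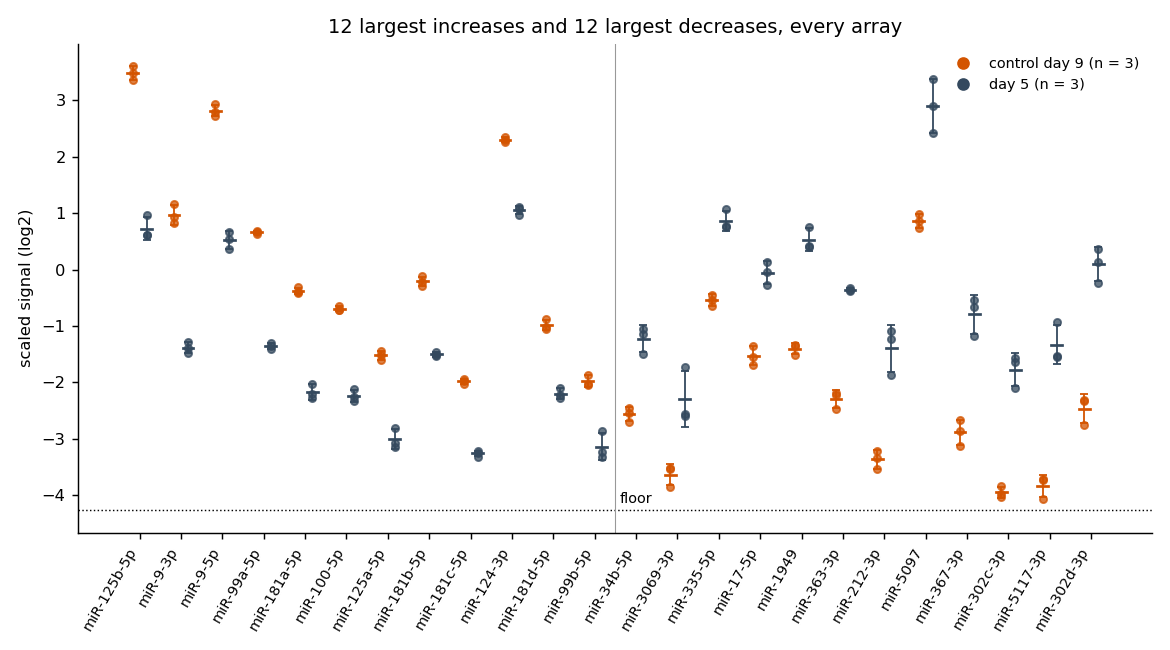
Scaled log2 signal (y axis) of the 12 largest increases, left of the grey line, and the 12 largest decreases among called miRNAs above background on all 6 arrays; points are arrays, bars the mean and SD, orange control day 9 and dark blue day 5. The 24 were chosen among miRNAs whose 3 day 9 arrays do not overlap their 3 day 5 arrays, which held for 178 (58.2%) of the 306.

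The miR-302 cluster, the main miRNA cluster of epiblast stem cells, decreased in all its tested members. miR-302d-3p was at -2.77, -2.33 and -2.31 in control day 9 cells, against 0.14, 0.37 and -0.23 at day 5, and fell by 2.56 (SE 0.16, limma adjusted p = 6.61e-09). miR-302c-3p fell by 2.18 (SE 0.13, adjusted p = 6.08e-09) and miR-367-3p, a cluster member with another seed, by 2.09 (SE 0.17, adjusted p = 1.09e-07). Each was still above background on all 3 day 9 arrays. miR-302a-3p was at -4.27, -4.12 and -4.11, above background on 2 of 3 day 9 arrays, against -1.31, -1.27 and -1.80 at day 5, and fell by 2.71 (SE 0.11, adjusted p = 1.02e-10). The last member, miR-302b-3p, did not exceed background on any day 9 array and was at -2.04, -1.93 and -2.29 at day 5, at least 4.28-fold lower in control day 9 cells.

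All 5 tested of the 10 cluster members on the array were lower, with a median of -2.18, also with the slide block and with each other scaling. Of these, miR-302a-3p and miR-302b-3p could enter the test only through day 5, where they were brighter. The 5 of 5 is therefore not read against the 35.0% of all miRNAs. For miR-302b-3p the slide block estimated no slide difference. Of the 3 above background on all 6 arrays all were lower, where 38.8% of all such miRNAs were. The summed signal of the cluster was 0.33 to 0.48 times the scaling percentile in control day 9 cells and 2.02 to 3.00 times at day 5. The hairpins of miR-302b, miR-302c, miR-302d and miR-367 lie at chr3:127545228-127545807 on the plus strand, within the spans of the protein-coding gene Larp7 and the non-coding gene Gm51018. These markers of EpiSC were thus low in the day 9 cells that carry the EpiSC label, and those cells are called control cells here. In such bulk samples fewer cells of a type and less RNA per cell cannot be told apart.

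The miR-290 cluster, characteristic of naive embryonic stem cells, was dim at both days. The array holds 14 of its members; 6 exceeded background on at least 1 of the 6 arrays, and 2 were tested. miR-294-3p was below background in control day 9 cells, against -3.16, -2.85 and -3.26 at day 5, and at least 2.13-fold lower at day 9 (limma adjusted p = 5.55e-08). miR-290-5p was at -3.76, -4.27 and -4.27 in control day 9 cells, above background on 1 of 3 arrays, and at -2.64, -2.92 and -2.34 at day 5 (change -1.46, adjusted p = 1.52e-06).

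The miR-17-92 cluster and its paralogs, which are known to promote proliferation, decreased by less and almost throughout. Of 27 members on the array 17 were tested, and 16 were lower and 0 higher, with a median of -1.04 against -0.09 for all miRNAs. Some, such as miR-18b-3p and miR-18b-5p, could enter the test only through day 5, where they were brighter. The 16 of 17 is therefore not read against the 35.0% of all miRNAs. Of the 13 above background on all 6 arrays 12 were lower, against 38.8% of all such miRNAs, and their median was -0.83. With the slide block 14 of the 17 were lower. The count was 16 with median or quantile scaling, 12 with the percentile over all probes and 7 without scaling, and no setting named here gave a higher member. The summed signal was 26.7 to 30.2 times the scaling percentile in control day 9 cells and 42.9 to 50.9 times at day 5.

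The members of this group come from 3 genomic clusters. From the X-linked cluster at chrX:52741693-52742413 (minus strand), miR-363-3p was at -2.48, -2.22 and -2.19 in control day 9 cells, against -0.38, -0.32 and -0.37 at day 5, and fell by 1.94 (SE 0.07, limma adjusted p = 4.85e-11). miR-18b-5p fell by 2.38 (SE 0.11, adjusted p = 4.32e-10), to -4.27, -4.06 and -4.18 on day 9 arrays, of which 2 were above background, against -1.68, -1.59 and -2.10 at day 5. miR-18b-3p was at least 2.35-fold lower, and miR-20b-5p fell by 1.04. From the miR-17-92 cluster itself, at chr14:115043671-115044506 (plus strand), miR-17-5p was at -1.69, -1.35 and -1.54 against -0.05, 0.14 and -0.27, and fell by 1.47 (SE 0.12, adjusted p = 1.55e-07). miR-19a-3p fell by 1.15, miR-18a-5p by 1.08 and miR-92a-3p, the brightest of them, by 0.64. The miR-106b-25 cluster at chr5:138165321-138165818 (minus strand) lies inside the replication gene Mcm7. From it miR-106b-3p fell by 0.99, also called with the slide block, miR-25-3p fell by 0.49 and miR-93-5p by 0.48, neither called with the slide block, and miR-106b-5p changed by -0.11 and was not called. Differences between clusters were not tested. miR-19b-3p and miR-92a-3p can come from both chromosome 14 and the X chromosome.

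Read by sequence, 9 tested miRNAs with a RefSeq sequence hold the letters AAGUGC within their first 9 bases (this strand only), which is 3.96% of the 227. Of these 9, 8 were lower at day 9 and 0 higher (median -1.18), and of the other 218, 76 were lower and 57 higher (median -0.08). Of the 9, miR-302b-3p and miR-294-3p could enter the test only through day 5, where they were brighter, so the filter fixed their direction. The median of the 9 is the value of miR-294-3p, which the floor limits. The 9 are miR-302b, miR-302c, miR-302d, miR-294, miR-17, miR-20a, miR-20b, miR-93 and miR-106b, which the lists above already hold, so the count is a second description of the same values. Among miRNAs with the seed AUUGCAC, all 6 tested were lower (35.0% of all miRNAs were), from -2.09 for miR-367-3p to -0.22 for miR-32-5p. With the slide block miR-25-3p, miR-92b-3p and miR-32-5p of these were no longer called.

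Several miRNAs outside these clusters decreased as much. The p53-responsive pair miR-34b-5p and miR-34c-5p fell together: miR-34b-5p was at -2.70, -2.45 and -2.55 in control day 9 cells, against -1.14, -1.05 and -1.50 at day 5, and fell by 1.34 (SE 0.12, limma adjusted p = 3.46e-07), and miR-34c-5p fell by 1.33 (SE 0.11, adjusted p = 1.3e-07). Both arms of miR-335, whose hairpin lies within the imprinted gene Mest at chr6:30741299-30741396 (plus strand), decreased. miR-335-5p was at -0.64, -0.44 and -0.53 against 0.75, 1.07 and 0.77, and fell by 1.40 (SE 0.15, adjusted p = 1.6e-06; change -0.79 with the slide block), and miR-335-3p, below background on all day 9 arrays, was at least 3.61-fold lower. miR-221-3p, known from proliferating and vascular cells, was below background in control day 9 cells, against -3.04, -3.09 and -3.21 at day 5, and at least 2.10-fold lower at day 9.

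The remaining large decreases were of miRNAs with less established roles. miR-5097 was among the brighter ones, at 0.99, 0.86 and 0.73 in control day 9 cells and 3.38, 2.89 and 2.41 at day 5, and fell by 2.03 (SE 0.23, limma adjusted p = 3.63e-06). miR-5117-3p fell by 2.50 (change -1.68 with the slide block), miR-1949 by 1.93 and miR-3069-3p by 1.35, with SE of 0.11 to 0.21. miR-877-5p was at least 3.77-fold lower and miR-344i at least 1.66-fold lower, both below background on all day 9 arrays. miR-874-3p was at least 1.58-fold lower and not called with the slide block (adjusted p = 0.108).

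**Figure D4:**
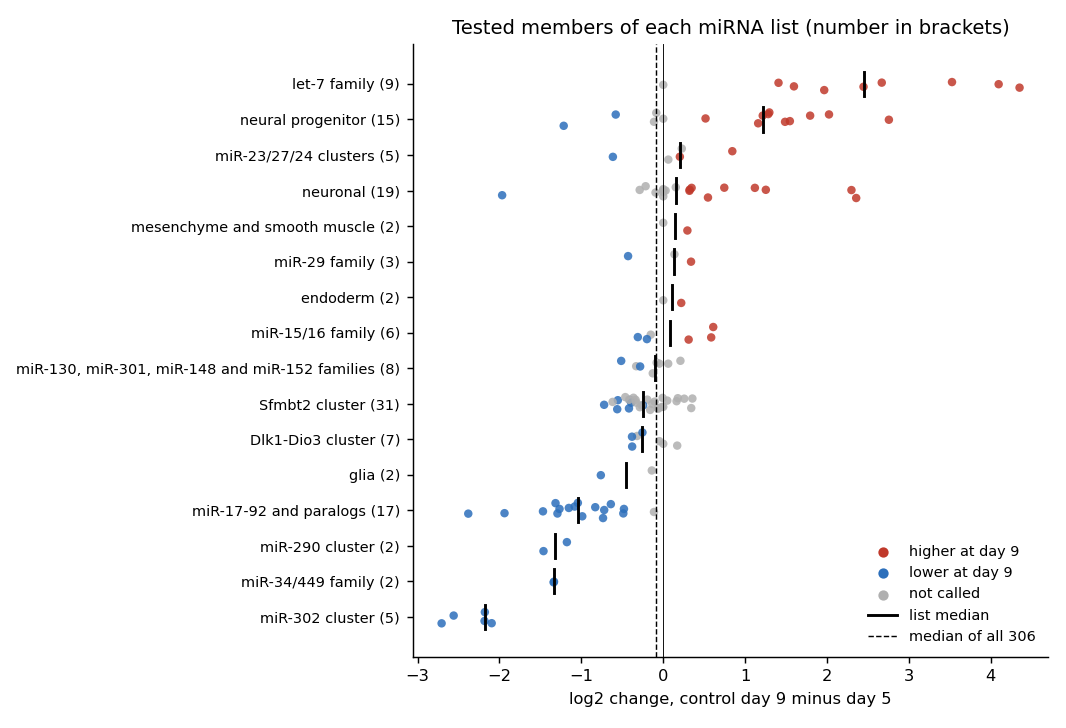
Log2 change from day 5 to control day 9 (x axis) of every tested member of each miRNA list (rows, number tested in brackets), red for higher, blue for lower and grey for not called; black bars are list medians and the dashed line the median of all 306. The let-7 family lies at the top with a median of 2.45 and the miR-302 cluster at the bottom with -2.18.

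All members of the remaining families and clusters tested here changed by less than 1 on the log2 scale. Of the miR-15/16 family, known to restrain the cell cycle, 3 of 6 tested were higher and 2 lower. One of the higher members, miR-497-5p, could enter the test only through groups where it was brighter, and miR-195-5p was above background on only 4 of the 6 arrays. These counts are therefore not read against the 23.9% of all miRNAs higher and 35.0% lower. Of the 4 members above background on all 6 arrays 1 was higher and 2 lower, where 25.9% and 38.8% of all such miRNAs were. No member of the family was lower with the slide block or with any other scaling, and 2 were higher with the slide block. miR-497-5p, at -3.70, -3.56 and -3.72 in control day 9 cells and below background at day 5, was at least 1.19-fold higher, and its neighbour miR-195-5p changed by 0.59 (limma adjusted p = 2.13e-05). With normexp the changes were -0.0532 for miR-497-5p and -0.0849 for miR-195-5p, and neither was called then or with a floor 4 times higher. miR-16-5p changed by -0.20, but by 0.17 with the percentile over all probes. Of the miR-23/27/24 clusters 2 of 5 were higher and 1 lower: miR-23b-3p changed by 0.84 (adjusted p = 5.39e-06), miR-24-3p by 0.20 and miR-27a-3p by -0.61 (adjusted p = 1.28e-05). The count of higher members was 4 with the percentile over all probes, median or quantile scaling, and 1 without scaling or with the slide block. Of the related miR-130, miR-301, miR-148 and miR-152 families 0 of 8 were higher and 2 lower, neither with the slide block. The split turned with the scaling, to 3 higher and 0 lower with the percentile over all probes and 2 higher and 1 lower with quantile scaling. In the miR-29 family miR-29a-3p changed by 0.34 and miR-29b-3p by -0.43, both near the detection limit. In the list named for the Sfmbt2 cluster, 7 of 31 tested were lower and 0 higher (22.6% against 35.0% of all), and 0 were lower with the slide block. This list was drawn by the names miR-297, miR-466, miR-467 and miR-669 and is wider than the cluster. RefSeq places the hairpin of miR-466i within Cdk13 on chromosome 13 and that of miR-467f within Fxr2 on chromosome 11. In the imprinted Dlk1-Dio3 cluster 3 of 7 tested were lower (42.9% against 35.0% of all) and 0 higher. With the slide block 0 of them were lower and 1 was higher. Other scalings moved the medians of the last 2 lists, -0.25 each, to as much as 0.04.

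Markers of other cell types were mostly below background. None of the 15 miRNAs of striated muscle, 13 of endothelium and blood, 10 of the epithelial miR-200 family and 11 of the Hox clusters was above background on any of the 6 arrays, and of the miR-183 cluster 1 of 6 was, on 1 array. Of 11 mesenchymal and smooth muscle markers only miR-21-5p was above background on any of these arrays, with a summed signal of 0.69 to 0.76 times the scaling percentile in control day 9 cells and 0.46 to 0.68 at day 5. It changed by 0.29 (limma adjusted p = 0.0483; 0.172 with the slide block). Of 17 endodermal miRNAs 2 were above background on any of the 6 arrays; miR-216a-5p changed by 0.22 (adjusted p = 0.0268; 0.275 with the slide block), and miR-375-3p was below background in both groups. Of 5 glial miRNAs 3 were above background, with a summed signal of 1.73 to 2.11 in control day 9 cells and 2.95 to 3.58 at day 5. Most of it was miR-219-5p, a miRNA of oligodendrocytes, which fell by 0.76 (adjusted p = 2.91e-05; with the slide block the change was -0.44, adjusted p = 0.0580). The part of these markers in the other results was not tested.

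**Figure D5:**
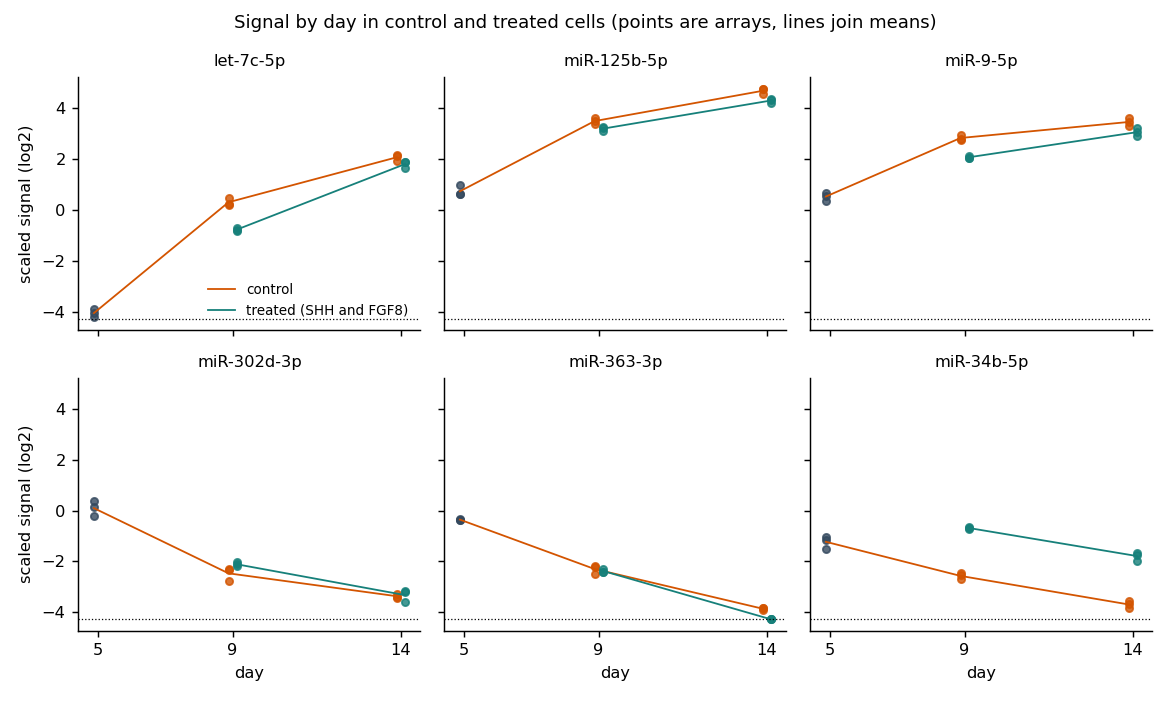
Scaled log2 signal (y axis) of 6 miRNAs by day (x axis) in control cells (orange) and in cells given SHH and FGF8 (green); points are arrays, dark blue at day 5, lines join group means and the dotted line is the floor. let-7c-5p, miR-125b-5p and miR-9-5p were higher on later days in both arms, and miR-34b-5p at day 9 was below its day 5 level in control cells but above it in treated cells.

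At day 9 itself control cells also differed from treated cells, with 170 of 306 miRNAs called (55.6%), 46 higher (15%) and 124 lower (40.5%) in control cells. The direction of the changes from day 5 was set beside control cells at day 14, with no test. let-7c-5p averaged -4.05 at day 5, 0.30 in control day 9 cells and 2.06 in control day 14 cells. miR-125b-5p averaged 0.73, 3.48 and 4.67 on the same days and miR-9-5p 0.52, 2.82 and 3.45. For these 3 the step from day 5 to day 9 was larger than the step after it. The day 5 arrays lay on slide 1 and those of both control days on slide 2, so only the first step can include a slide difference. let-7c-5p was also above background on only 1 of 3 day 5 arrays. miR-302d-3p averaged 0.09, -2.47 and -3.36, miR-363-3p -0.36, -2.30 and -3.86, and miR-34b-5p -1.23, -2.57 and -3.69, each lower on every later day.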

How the data were processed

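Small RNA was labelled with Cy3 and hybridised to single-colour Agilent mouse miRNA arrays, 3 per group. The deposited scanner tables hold spot signals in units of intensity, made with Feature Extraction 11.0.1.1 per the file headers, background-subtracted and not normalized between arrays. Other deposited columns are, per the file headers, flags of 0 or 1 that mark a spot as saturated, as an outlier or as well above background (values of another kind, other). The deposited table of values, also intensity, served as an alternative; there treated day 14 replicate 2 repeats replicate 1 (86.0% of probes within 0.1%), and they were counted once. limma 3.20.9 is named, per the submitters' processing notes, for a use not given in the sources used here.

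Signals were averaged over non-outlier spots of a probe, scaled to the 75th percentile of each array's 353 probes that were above background on all 15 arrays, floored at -4.27 and put on the log2 scale. A probe was above background where at least 50% of its spots were flagged so. Each miRNA was represented by its brightest probe. No spot was saturated, and outlier spots made up 4.28% to 4.56% of spots on control day 9 arrays and 4.28% to 4.52% on day 5 arrays. All 5 groups were fitted in limma 3.58.1 (R 4.3.3, with the package data.table of version 1.17.8; 10 residual and 3.06 prior degrees of freedom), with two-sided tests, Benjamini-Hochberg adjustment over 306 miRNAs and calls below 0.05. The limma fit and its calls were tested on simulated log2 values. Scaling, floor, background filter, probe choice and slide were not part of that simulation. The number of arrays limits the precision. Python 3.11.15 with numpy 2.4.6, pandas 2.3.3 and matplotlib 3.10.9 drew the figures.

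"At least" folds compare the brighter group's mean with the mean, over the dimmer group's arrays, of the lowest signal above background or the miRNA's own signal, whichever was higher. The named miRNAs were the 12 largest increases and 12 largest decreases among called miRNAs above background on all 6 arrays without overlap, those above background in all arrays of one group and none of the other (up to 10 each way), as many as 5 called miRNAs from every list, and preset members of the let-7, miR-302, miR-290, miR-9, miR-34 and similar groups, 74 in all. Members of lists beyond these are named as examples after their values were seen. The comparison, the 21 lists and this rule were chosen with earlier results of these data known. Alternatives changed the scaling, background correction (normexp with an offset of 50, on median spot signals because mean signals were not in the tables used), floor, filter, probe summary, moderation, slide and replicate blocks, arrays fitted and value table.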

Additional observations from a re-analysis of the deposited data

Results flagged for a closer look

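For the 42 miRNAs with the largest or one-sided changes, the day 5 to day 9 change of control cells was set against that of cells given SHH and FGF8. Both arms share the day 5 arrays, so the difference equals control minus treated at day 9 (limma, same fit); across all miRNAs 55.6% were called in it, 40.5% as lower in control. The control day 9 arrays lay on slide 2 and the treated day 9 arrays on slide 1. Of the 42, 29 were called and 17 with slide as a block; the 28 with a measured difference or limit are given here because the arms differed.

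Of the 28, 15 were higher in control than in treated cells at day 9. On the log2 scale, control minus treated, miR-9-3p differed by 1.03, miR-124-3p by 0.97, miR-9-5p by 0.76, miR-181b-5p by 0.66, miR-181d-5p by 0.59, miR-181a-5p by 0.55, miR-181c-5p by 0.34 and miR-125b-5p by 0.30. Of these miR-181c-5p (adjusted p = 0.0856) and miR-125b-5p (adjusted p = 0.524) were not called with the slide block. The difference was 1.14 for let-7i-5p, 0.73 for let-7b-5p, 0.64 for let-7e-5p, 0.56 for let-7g-5p and 0.54 for let-7d-5p, with let-7b-5p (adjusted p = 0.0606) and let-7e-5p (adjusted p = 0.129) not called with the slide block. miR-129-1-3p was at least 1.49-fold higher in control cells and miR-598-3p at least 1.04-fold higher (adjusted p = 0.0795 with the slide block). Of other miRNAs on the neural progenitor list, miR-99a-5p differed by 0.02, miR-99b-5p by 0.05, miR-100-5p by -0.01 and miR-125a-5p by -0.16, none called.

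The other 13 were lower in control than in treated cells at day 9. The difference was -2.42 for miR-212-3p, -2.27 for miR-132-3p, -2.01 for miR-5097, -1.88 for miR-34b-5p, -1.77 for miR-5117-3p and -0.72 for miR-1949, all called with the slide block. It was -0.97 for miR-335-5p, -0.93 for miR-3069-3p, -0.36 for miR-17-5p and -0.33 for miR-101c, none called with the slide block (adjusted p from 0.163 to 0.851). miR-335-3p was at least 2.35-fold lower, miR-877-5p at least 1.64-fold lower and miR-874-3p at least 1.34-fold lower in control cells, with only miR-335-3p called with the slide block. For miR-335-3p the block estimated no slide difference (-1.32 without and with it), so it could not change that call through a slide difference.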

How the results depend on the processing

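Of the 73 named and called miRNAs, 32 kept direction and call in every alternative and 58 never changed sign. The count of calls, 180 (73 higher, 107 lower), became 98 (51 and 47) with slide as a fixed block, 86 (53 and 33) without scaling, 113 (40 and 73) with normexp, 108 (49 and 59) with a floor 4 times higher, 156 (107 and 49) with the percentile over all probes, and 122 (52 and 70) where the filter asked for all 15 arrays, which left 192 tested. Leaving out 1 array gave 160 to 185 calls (65 to 77 higher, 93 to 113 lower). Replicate numbers did not pair the arrays (same-number correlations of deviations -0.48, -0.01 and -0.05), and a replicate block gave 177 calls. miRNAs near the floor or with small changes reversed. With normexp the log2 change was -0.12 for miR-101c, -0.0251 for miR-129-1-3p, -0.10 for miR-132-3p, -0.0849 for miR-195-5p, -0.18 for miR-216a-5p, -0.0181 for miR-24-3p, -0.15 for miR-29a-3p, -0.0532 for miR-497-5p and -0.17 for miR-598-3p. With the percentile over all probes, and then without scaling, it was 0.0865 and 0.0410 for miR-148b-3p, 0.17 and 0.12 for miR-16-5p (0.0210 with quantile), 0.0582 and 0.0059 for miR-322-5p, and 0.11 and 0.0689 for miR-494-3p. With the slide block it was 0.0305 for miR-148b-3p and 0.10 for miR-29b-3p, and with the deposited values 2.97 for miR-487b-3p. The causes were not tested. Signals near background limit the let-7, miR-290 and miR-132 results at one of the days.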

Other observations

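Opposite arms or close relatives did not always move alike; the following were chosen after their values were seen. miR-135a-1-3p changed by -1.22 (SE 0.12, limma adjusted p = 1.07e-06), while miR-135a-5p, at -1.53, -1.32 and -1.64 in control day 9 cells and -1.33, -1.20 and -1.70 at day 5, changed by -0.09 (adjusted p = 0.700), and miR-135b-5p changed by 0.52 (adjusted p = 0.00137). miR-135a-5p can come from hairpins on chromosomes 9 and 10 and miR-135a-1-3p only from that on chromosome 9, so this pair does not compare the arms of a single hairpin. In the miR-106b hairpin the 3p arm changed by -0.99 and the 5p arm by -0.11. Among ubiquitous families, miR-103-3p changed by 0.35 and miR-107-3p by 0.50 with no overlap between the groups, neither called with the slide block (adjusted p = 0.262 and 0.0657), and 3 of 4 tested members of the miR-30 seed family were higher (2 with the slide block; median 0.33, 23.9% of all miRNAs higher).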
